A study of Mus musculus with 6 samples.

Results

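The genes described here are the ligands of the tumor necrosis factor (TNF) family and their receptors. They were taken by name, as every row of the count table whose symbol starts with Tnfsf or Tnfrsf together with Tnf, Lta, Ltb, Ltbr, Fas, Fasl, Cd27 and Cd70, which gave 39 genes of 33924: 16 ligands and 23 receptors. Expression was measured by RNA sequencing of total RNA from mouse bone marrow in 3 groups of 2 libraries each. The groups leukemia 1 and leukemia 92 were primary leukemias of genotype Mll-Af4/ N-RasG12D. Their origin was marrow of Mll-Af4 mice aged 6 to 8 weeks, depleted of lineage cells and sorted for c-Kit and Sca1. After a night in lymphoid medium these cells received an MSCV retrovirus with cre and TdTomato, were sorted for Tomato, and then received N-RasG12D by a further retrovirus. Recipients irradiated with 900 rads received 250000 of these cells along with 200000 wild-type helper marrow cells, so each recipient also carried wild-type blood cells. The comparison group was wild-type pro-B cells sorted as B220+CD43+IgM-, and the age of those mice is not given in the sources used here. No label says that the leukemia cells were sorted before RNA was taken, or that the 2 libraries of a group came from separate animals. Spread between the libraries of a group may thus be technical, and p-values rest on it. In the comparison over both leukemias, the spread on the leukemia side is instead that between the 2 leukemias. Each leukemia number is 1 leukemia, and no drug-treated cells are among these libraries.

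TNF family ligands are mostly membrane-bound trimers that cluster receptors on a neighbouring cell, and some are released by proteases. Receptors with a death domain can start caspase activation through Fadd and Casp8, while most others recruit TRAF proteins and activate NF-kB. In B-lineage cells the family is known for the survival receptors of BAFF and APRIL, for lymphotoxin in the building of lymphoid tissue, and for costimulation between B and T cells.

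The libraries held 22153444 to 27444759 counts on genes. Levels are in CPM, read counts scaled to library size with TMM factors, and a floor of 3 counts lay at 0.111 to 0.14 CPM. Nras, the second hit of the model, stood at 343 to 543 CPM in the 4 leukemia libraries and at 156 and 157 CPM in the pro-B libraries. Summed over a list of 14 pro-B markers such as Pax5 and Vpreb1, the leukemia libraries (6112 to 7652 CPM) and the pro-B libraries (5587 and 6472 CPM) overlapped. All 14 were detected in every library except replicate 2 of leukemia 92, where Dntt had 0 counts. Such a sum does not show whether single markers differ. Replicate 2 of leukemia 1 stood apart: 12 of 12 granulocyte markers were detected in every library, and they summed to 16469 CPM there against 183 CPM in replicate 1, 457 and 806 CPM in leukemia 92 and 425 and 450 CPM in pro-B cells. Transcripts of the Y-linked genes Ddx3y, Eif2s3y, Kdm5d and Uty summed to 1205 counts in that library, to 121 in replicate 1 of leukemia 1, and to 0 to 6 in the others. Of 10 NK cell and 10 T cell markers, all of each list were detected in both pro-B libraries, where the NK markers summed to 480 and 501 CPM and the T cell markers to 177 and 178 CPM. In the leukemia libraries the same sums were 5.57 to 36.5 CPM and 16.5 to 62.2 CPM, with Ncr1 at 0 counts in 3 of the 4. In such bulk libraries fewer cells of a type and less RNA per cell cannot be told apart.

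The first comparison asked which ligands and receptors differ between the leukemias and the normal pro-B cell. For it the 2 libraries of a leukemia were added up, so that each leukemia counted once against the pro-B pair. A gene was called where edgeR's quasi-likelihood test gave a p under 0.05 after Benjamini-Hochberg adjustment over all genes. Of the 39 genes, 34 had enough counts to be tested. A total of 13 was called, where 20.2% of all genes tested were called. Among these 6 rose (9.54% of all genes did): Lta, Tnf, Tnfsf9, Tnfrsf11a, Tnfrsf10b and Tnfrsf1b. The other 7 fell (10.7% of all genes did): Tnfsf10, Fasl, Cd27, Tnfrsf8, Tnfrsf17, Tnfrsf22 and Tnfrsf26. Without replicate 1 of leukemia 1 the test called 13.4% of all genes and 6 of these 13, namely Lta, Tnf, Tnfsf9, Tnfrsf11a, Tnfrsf1b and Tnfsf10. With either pro-B library left out, a single one remained in its group. None of the 13 calls was then kept, and none of the 13 genes changed sign. Counted without a test, all 4 leukemia libraries lay above both pro-B libraries for 9 of the 34 (23.4% of all genes) and below both for 11 (27.3% of all genes).

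**Figure D1:**
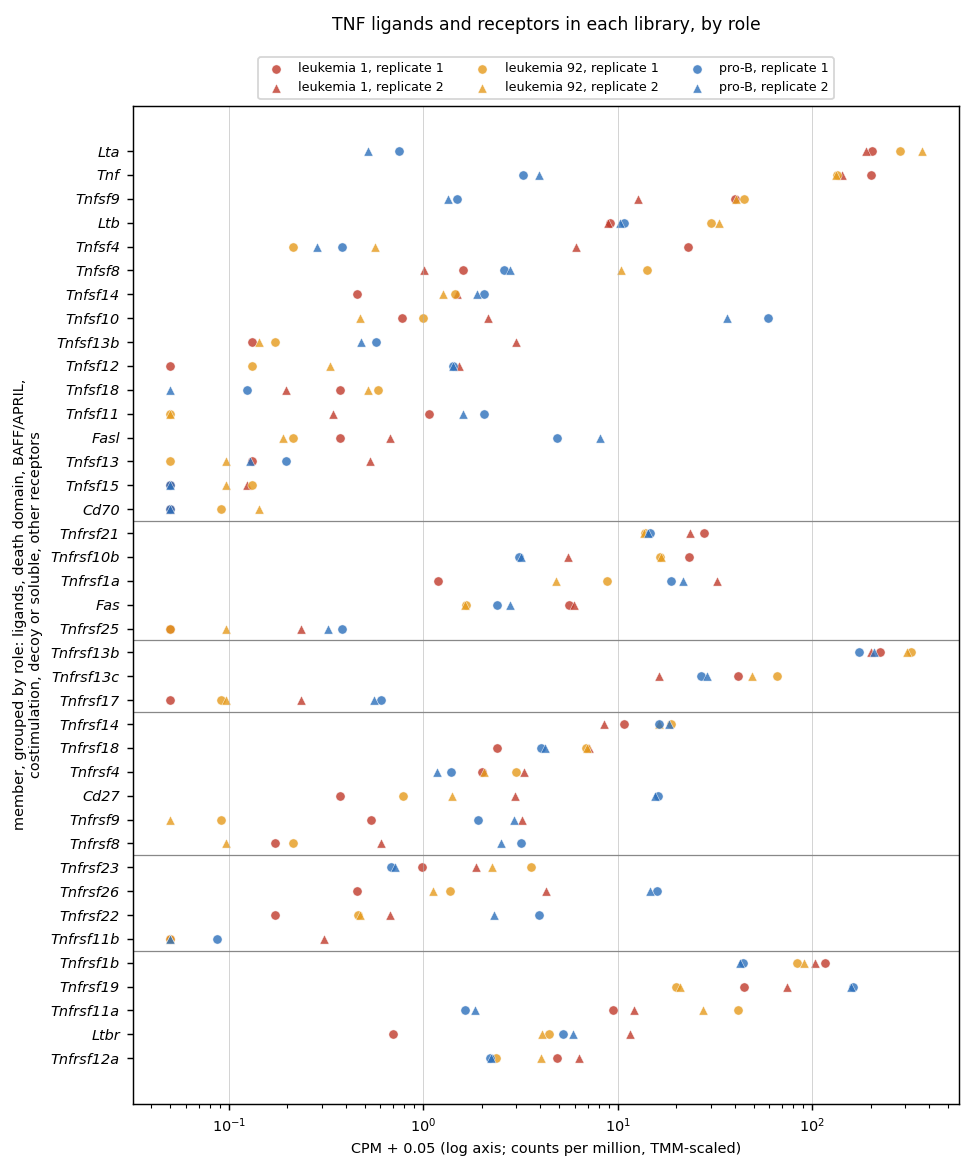
Level of the 39 genes in each of the 6 libraries, as CPM + 0.05 on a log axis, grouped by role with horizontal lines between roles and ordered by mean leukemia level within a role. Circles are replicate 1 and triangles replicate 2. Lta and Tnf lie far to the right of both pro-B libraries in all 4 leukemia libraries, while Tnfsf10, Fasl and Cd27 lie far to the left.

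The ligands with the largest rises were the founding members of the family. Lta, lymphotoxin alpha, which acts as a secreted trimer on TNF receptors or together with Ltb on Ltbr, stood at 202 and 190 CPM in the libraries of leukemia 1, 282 and 365 CPM in leukemia 92, and 0.703 and 0.468 CPM in pro-B cells. All 4 leukemia libraries were high, and both pro-B libraries held few reads (19 and 12 counts). The mean was 260 ± 81.4 CPM (SD, n = 4 libraries) against 0.586 ± 0.167 CPM (SD, n = 2), a log2 change of 8.79 (SE 0.48, adjusted p = 0.0079). Tnf, the inflammatory cytokine that names the family, was at 200 and 142 CPM in the libraries of leukemia 1, 134 and 133 CPM in leukemia 92, and 3.22 and 3.90 CPM in pro-B cells. Its groups were again far apart, with a log2 change of 5.41 (SE 0.21, adjusted p = 0.0065). Ltb, the membrane partner of Lta, did not follow: it was at 9.02 and 8.83 CPM in the libraries of leukemia 1, 29.9 and 32.9 CPM in leukemia 92 and 10.8 and 10.2 CPM in pro-B cells. Leukemia 1 lay just below the pro-B libraries and leukemia 92 above them, and over both leukemias Ltb did not pass (log2 change 0.97, SE 0.68, adjusted p = 0.36).

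Monocyte and macrophage markers, which mark another source of Tnf, summed to 538 and 2865 CPM in the libraries of leukemia 1, 2521 and 2028 CPM in leukemia 92 and 457 and 465 CPM in pro-B cells, with 10 of 10 detected in every library. The part of these cells in the level of Tnf was not tested. Tnf rose by 5.59 (SE 0.25, adjusted p = 0.0019) in leukemia 1 and by 5.22 (SE 0.25, adjusted p = 0.0012) in leukemia 92 on the log2 scale, in a fit of 6 libraries in which both share the pro-B controls. Lta rose by 8.37 (SE 0.29, adjusted p = 0.0017) and 9.09 (SE 0.30, adjusted p = 0.0012).

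Ltb, Tnf and Lta are neighbours on chromosome 17 with no protein-coding gene between them (RefSeq, GRCm38.p6), and their levels differed as given above. The 250 bases before the RefSeq start of Tnf (GRCm38.p6 chr17:35202008-35202257, minus strand) and of Ltb (chr17:35194257-35194506, plus strand) are shown, with those of Tnfsf10 (chr3:27316827-27317076, plus strand), the ligand with the largest fall among those called over both leukemias. RefSeq windows were found for 31 of the 39 genes. The window of Lta starts inside a longer gene model and is not shown. Capitals mark matches on either strand to 4 motifs: NF-kB (GGG and CC with any 5 bases between), AP-1 (TGANTCA), IRF (GAAA repeated after any 2 bases) and the TATA box (TATAAA).
Tnf: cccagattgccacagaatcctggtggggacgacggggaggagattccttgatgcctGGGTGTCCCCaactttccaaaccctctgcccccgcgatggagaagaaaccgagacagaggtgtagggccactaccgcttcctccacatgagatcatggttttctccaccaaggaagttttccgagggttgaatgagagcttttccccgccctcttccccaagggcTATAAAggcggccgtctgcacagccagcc
Ltb: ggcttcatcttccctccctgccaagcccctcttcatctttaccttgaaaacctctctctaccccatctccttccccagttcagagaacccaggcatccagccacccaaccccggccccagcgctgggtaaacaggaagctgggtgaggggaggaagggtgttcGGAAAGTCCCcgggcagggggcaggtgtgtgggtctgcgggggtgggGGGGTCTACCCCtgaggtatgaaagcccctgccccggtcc
Tnfsf10: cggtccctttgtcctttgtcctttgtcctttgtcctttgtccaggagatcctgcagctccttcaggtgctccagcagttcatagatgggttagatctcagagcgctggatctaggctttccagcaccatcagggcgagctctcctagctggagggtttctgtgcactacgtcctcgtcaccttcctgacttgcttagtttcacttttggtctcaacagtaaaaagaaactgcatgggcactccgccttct

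The Tnf window holds 1 match to the NF-kB letters, starting 194 bases before the start, and a TATA box 29 bases before it. The Ltb window holds 4 matches to the NF-kB letters, at 87, 40, 39 and 38 bases, the last 3 overlapping. The Tnfsf10 window holds none of the 4 motifs. Among other genes called over both leukemias, the risen Lta and Tnfrsf11a held 2 NF-kB matches each and Tnfrsf1b held 3. Of the fallen, Tnfrsf8 held 4, Cd27 held 2, Fasl held 1 and Tnfrsf17 held 0. For Tnfsf9, Tnfrsf10b, Tnfrsf22 and Tnfrsf26 no window was found. These letters are common: the NF-kB motif is found in 45.8% and the TATA box in 12.4% of all 32851 RefSeq windows of the same length. Of 35 windows of the family (some genes have more than 1), 22 hold the NF-kB letters, 6 the AP-1 letters, 4 the IRF letters and 6 the TATA box, where 6.75% and 2.98% of all windows hold the AP-1 and IRF letters. A match is a description of the letters and not a site of binding.

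Tnfsf9, a costimulatory ligand of activated B cells and other antigen-presenting cells, was at 39.8 and 12.7 CPM in the libraries of leukemia 1, 44.7 and 40.5 CPM in leukemia 92 and 1.44 and 1.29 CPM in pro-B cells. The leukemia libraries were all above the pro-B libraries, and the lowest was replicate 2 of leukemia 1. The log2 change was 4.66 (SE 0.40, adjusted p = 0.014). Its receptor Tnfrsf9, which costimulates T and NK cells, was at 0.488 and 3.18 CPM in the libraries of leukemia 1, 0.0411 and 0 CPM in leukemia 92 and 1.85 and 2.88 CPM in pro-B cells. Leukemia 92 had 1 count in all against 124 in pro-B cells, a 108-fold lower level with a 95% exact interval of 19.0 to 4287 that covers counting error only. Tnfrsf9 fell in leukemia 92 (adjusted p = 0.030), and in leukemia 1 its libraries lay on either side of the pro-B values. T and NK cell markers were lower in leukemia 92 than in pro-B cells as well, and their part in this fall was not tested.

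The ligands Tnfsf10 and Fasl fell. Tnfsf10, TRAIL, which triggers death through Tnfrsf10b in mouse cells, was at 0.731 and 2.11 CPM in the libraries of leukemia 1, 0.945 and 0.42 CPM in leukemia 92 and 59.2 and 36.3 CPM in pro-B cells. No leukemia library came near the pro-B level, although the pro-B libraries differed 1.63-fold from each other. The log2 change was -5.47 (SE 0.51, adjusted p = 0.015). Fasl, the ligand of Fas and a product of cytotoxic lymphocytes, was at 0.325 and 0.628 CPM in the libraries of leukemia 1, 0.164 and 0.14 CPM in leukemia 92 and 4.81 and 8.07 CPM in pro-B cells. It fell by 4.32 in log2 units (SE 0.72, adjusted p = 0.031, and 0.061 without replicate 1 of leukemia 1). NK and T cell markers were lower in the same leukemia libraries, and so were plasmacytoid dendritic cell markers, which summed to 1324 to 2095 CPM in leukemia and 3990 and 4537 CPM in pro-B cells. The part of these cells in the lower Fasl and Tnfsf10 was not tested.

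Receptors with a death domain gave 1 call among 5 tested, near the 20.2% of all genes that were called. Tnfrsf10b, the TRAIL receptor, was at 23.3 and 5.47 CPM in the libraries of leukemia 1, 16.5 and 16.5 CPM in leukemia 92 and 3.07 and 3.12 CPM in pro-B cells. All leukemia libraries were above the pro-B pair, with replicate 2 of leukemia 1 closest to it. It rose by 2.31 in log2 units (SE 0.26, adjusted p = 0.017), a call lost without replicate 1 of leukemia 1 (adjusted p = 0.14) and in the fit of 6 libraries (adjusted p = 0.053). Beside the low Tnfsf10 of the leukemias stood a higher level of its receptor. Fas, the receptor of Fasl, was at 5.57 and 5.87 CPM in the libraries of leukemia 1, 1.60 and 1.59 CPM in leukemia 92 and 2.33 and 2.73 CPM in pro-B cells, so that the leukemias lay on either side of the normal cells. It rose in leukemia 1 (log2 change 1.18, SE 0.28, adjusted p = 0.044, and 0.084 without a filter on low counts), while the value in leukemia 92 was -0.66 (adjusted p = 0.13). Tnfrsf21, death receptor DR6, was at 27.8 and 23.5 CPM in the libraries of leukemia 1, 13.8 and 13.5 CPM in leukemia 92 and 14.7 and 14.2 CPM in pro-B cells. It rose in leukemia 1 (log2 change 0.83, SE 0.16, adjusted p = 0.028, and 0.056 without the filter) and stood at -0.08 in leukemia 92 (adjusted p = 0.75).

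Tnfrsf1a, the broadly expressed death-domain receptor of Tnf and Lta, varied more within leukemia 1 than between groups: it was at 1.14 and 32.2 CPM in the libraries of leukemia 1, 8.71 and 4.76 CPM in leukemia 92 and 18.8 and 21.5 CPM in pro-B cells. A single library, replicate 2 of leukemia 1, lay above the pro-B pair and the other 3 lay below it. Tnfrsf1a did not pass (log2 change -0.74, SE 0.48, adjusted p = 0.33). Tnfrsf1b, the TNF receptor without a death domain found on lymphoid and myeloid cells, was at 116 and 103 CPM in the libraries of leukemia 1, 83.1 and 90.8 CPM in leukemia 92 and 43.8 and 42.4 CPM in pro-B cells. Its groups did not overlap and it rose by 1.19 in log2 units (SE 0.14, adjusted p = 0.018). Ltbr, the receptor of the Lta and Ltb trimer, named here after its values were seen, was at 0.65 and 11.5 CPM in the libraries of leukemia 1, 4.36 and 4.02 CPM in leukemia 92 and 5.18 and 5.81 CPM in pro-B cells and did not pass (adjusted p = 0.91). Ltbr and Tnfrsf1a lie close together on chromosome 6 with 1 protein-coding gene between them, and both were low in replicate 1 and high in replicate 2 of leukemia 1, the library with the highest sum of granulocyte markers. The part of granulocytes was not tested.

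Tnfrsf11a, RANK, the receptor of the bone and lymph node cytokine RANKL, was at 9.38 and 12.0 CPM in the libraries of leukemia 1, 41.2 and 27.4 CPM in leukemia 92 and 1.59 and 1.79 CPM in pro-B cells. All 4 leukemia libraries were above the pro-B pair, and leukemia 92 was the higher of the leukemias. The log2 change was 3.78 (SE 0.72, adjusted p = 0.040). It rose by 2.66 in leukemia 1 (adjusted p = 0.0084) and by 4.34 in leukemia 92 (adjusted p = 0.0022), and the difference between the leukemias did not pass (log2 difference 1.68, SE 0.28, adjusted p = 0.054). Its ligand Tnfsf11 was at 1.02 and 0.296 CPM in the libraries of leukemia 1, 0 CPM in both libraries of leukemia 92 and 2.0 and 1.56 CPM in pro-B cells. It fell in leukemia 92 (adjusted p = 0.019), at least 27.2-fold against a floor of 3 counts over that group. Tnfrsf11b, osteoprotegerin, the soluble decoy of RANKL, had 0 to 7 counts per library and was not tested.

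**Figure D2:**
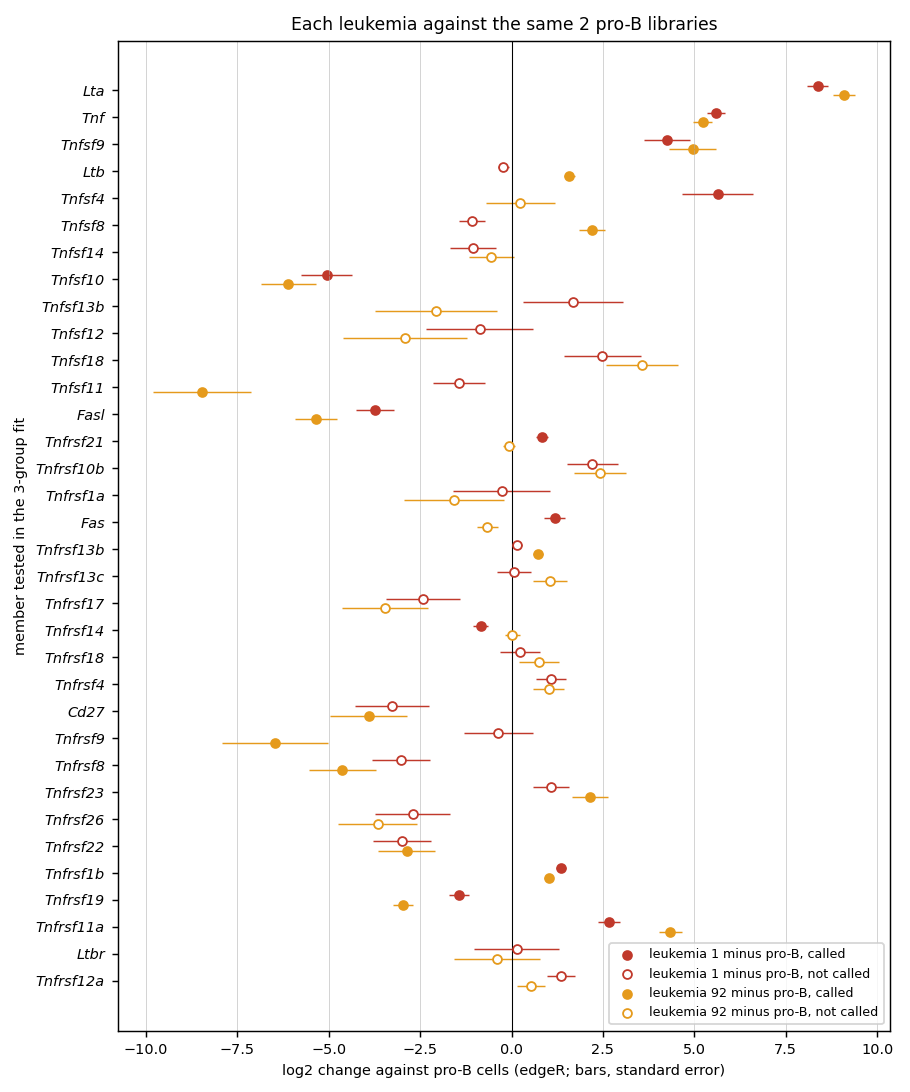
Log2 change of the 34 genes tested in the fit of 6 libraries, for leukemia 1 and leukemia 92 each against the same 2 pro-B libraries. Points are log2 changes, bars standard errors, and filled points passed an adjusted p of 0.05. Lta, Tnf, Tnfsf9, Tnfrsf11a and Tnfrsf1b are filled on the right in both leukemias, and Tnfsf10, Fasl and Tnfrsf19 on the left in both.

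Of the 3 receptors of BAFF and APRIL 1 fell (10.7% of all genes did) and 2 did not pass over both leukemias. Tnfrsf13b, TACI, which binds both ligands, was at 222 and 200 CPM in the libraries of leukemia 1, 320 and 306 CPM in leukemia 92 and 174 and 207 CPM in pro-B cells. Leukemia 1 overlapped with pro-B cells, leukemia 92 did not, and Tnfrsf13b rose there (log2 change 0.72, SE 0.14, adjusted p = 0.020). Tnfrsf13c, the BAFF receptor of maturing B cells, was at 41.6 and 16.3 CPM in the libraries of leukemia 1, 65.4 and 48.7 CPM in leukemia 92 and 26.7 and 28.5 CPM in pro-B cells and did not pass in any comparison (adjusted p = 0.31 over both leukemias). Tnfrsf17, BCMA, the plasma cell receptor, held 15 and 13 counts in the pro-B libraries and 0 to 5 counts in leukemia libraries. It fell (log2 change -2.84, SE 0.53, adjusted p = 0.037), but not without replicate 1 of leukemia 1 (adjusted p = 0.13) or by DESeq2 (adjusted p = 0.10). Plasma cell markers summed to 254 to 923 CPM in the leukemia libraries and 629 and 722 CPM in pro-B cells. Mature B cell markers summed to 907 and 1473 CPM in the libraries of leukemia 1 and 2796 and 2415 CPM in leukemia 92. In pro-B cells they summed to 1091 and 1314 CPM. The part of such cells in the levels of these receptors was not tested. The ligands of these receptors were scarce: Tnfsf13b, BAFF, reached 2.96 CPM in replicate 2 of leukemia 1 and at most 0.518 CPM elsewhere, and Tnfsf13, APRIL, had 0 to 13 counts per library.

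Per kilobase of exon (GENCODE M21), which allows levels of different genes to be compared, Tnfrsf13b ranked highest of the family in pro-B cells at 74.4 CPM per kb, followed by Tnfrsf19 at 35.1, Tnfrsf13c at 13.5, Tnfrsf14 at 13.3 and Tnfrsf1b at 11.3 CPM per kb. In leukemia 1 the order was Lta at 142, Tnf at 104, Tnfrsf13b at 82.5, Tnfrsf1b at 28.7 and Tnfsf9 at 20.3 CPM per kb. In leukemia 92 it was Lta at 234, Tnfrsf13b at 123, Tnf at 81.3, Tnfsf9 at 33.0 and Tnfrsf13c at 27.9 CPM per kb. Lta and Tnf stood at 0.423 and 2.17 CPM per kb in pro-B cells.

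Tnfrsf19, an orphan receptor also called TROY, was at 44.2 and 73.7 CPM in the libraries of leukemia 1, 19.9 and 20.8 CPM in leukemia 92 and 161 and 159 CPM in pro-B cells. Every leukemia library was below the pro-B pair, and the leukemias were apart from each other. Over both leukemias it did not pass (log2 change -2.01, SE 0.54, adjusted p = 0.074), while it fell in leukemia 1 (log2 change -1.44, SE 0.26, adjusted p = 0.025) and in leukemia 92 (log2 change -2.97, SE 0.28, adjusted p = 0.0036). The first fit takes each leukemia as 1 value and counts their distance as spread, and the second counts the distance between libraries only.

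Costimulatory receptors of lymphocytes gave 2 falls and no rise among 6 tested, where 10.7% of all genes fell and 9.54% rose. Cd27, a receptor of T cells, NK cells and lymphoid progenitors, was at 0.325 and 2.92 CPM in the libraries of leukemia 1, 0.74 and 1.35 CPM in leukemia 92 and 16.0 and 15.4 CPM in pro-B cells. All leukemia libraries were far below the pro-B pair (log2 change -3.53, SE 0.34, adjusted p = 0.015, and 0.057 without replicate 1 of leukemia 1). Its ligand Cd70 had 0 to 2 counts per library. Tnfrsf8, CD30, was at 0.122 and 0.554 CPM in the libraries of leukemia 1, 0.164 and 0.0467 CPM in leukemia 92 and 3.15 and 2.46 CPM in pro-B cells (log2 change -3.59, SE 0.66, adjusted p = 0.037, and 0.097 without that library). NK and T cell markers were lower in the same leukemia libraries, and their part in these falls was not tested. Tnfrsf14, HVEM, which binds LIGHT and the inhibitory receptor BTLA, was at 10.7 and 8.46 CPM in the libraries of leukemia 1, 18.7 and 16.3 CPM in leukemia 92 and 16.3 and 18.2 CPM in pro-B cells. It fell in leukemia 1 alone among the comparisons run (log2 change -0.85, SE 0.20, adjusted p = 0.046, and 0.060 without the filter), and the difference between the leukemias did not pass (adjusted p = 0.089). Tnfrsf4 and Tnfrsf18, neighbours on chromosome 4, lay between 1.13 and 7.09 CPM in all libraries and did not pass.

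The decoy receptors Tnfrsf22, Tnfrsf23 and Tnfrsf26 are neighbours on chromosome 7, and Tnfrsf22 and Tnfrsf23 bind TRAIL without a death domain. Tnfrsf26 was at 0.406 and 4.25 CPM in the libraries of leukemia 1, 1.32 and 1.07 CPM in leukemia 92 and 15.8 and 14.6 CPM in pro-B cells, and fell by 3.07 in log2 units (SE 0.42, adjusted p = 0.022, and 0.096 without replicate 1 of leukemia 1). Tnfrsf22 was at 0.122 and 0.628 CPM in the libraries of leukemia 1, 0.411 and 0.42 CPM in leukemia 92 and 3.89 and 2.26 CPM in pro-B cells, and fell by 2.92 (SE 0.47, adjusted p = 0.028, and 0.054 and 0.052 without replicate 1 and replicate 2 of leukemia 1). Tnfrsf23 went against its neighbours: it was at 0.934 and 1.81 CPM in the libraries of leukemia 1, 3.53 and 2.20 CPM in leukemia 92 and 0.629 and 0.663 CPM in pro-B cells, above the pro-B pair in all 4 leukemia libraries. Over both leukemias it did not pass (adjusted p = 0.098), and it rose in leukemia 92 (log2 change 2.14, SE 0.50, adjusted p = 0.032). These genes are similar in sequence, so reads shared between them may be missing from the counts, and Tnfrsf23 and Tnfrsf26 share exon positions with an antisense transcript in GENCODE M21, which counts without strand cannot separate.

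Of the 39 genes, 23 lie in 9 runs of neighbours with at most 1 other protein-coding gene between them, and members of a run did not always move together. On chromosome 1 Tnfsf4 was high in leukemia 1, Fasl fell in both leukemias, and Tnfsf18 had 12 counts in leukemia 1 and 23 in leukemia 92 against 2 in pro-B cells and did not pass in either (adjusted p = 0.16 and 0.051). On chromosome 17 Tnfsf9 rose, while Cd70, next to it, had 0 to 2 counts per library. Tnfsf14, LIGHT, on the other side of Cd70, was at 0.406 to 1.44 CPM in leukemia and 2.0 and 1.83 CPM in pro-B cells (adjusted p = 0.24). On chromosome 4 Tnfrsf1b rose and its neighbour Tnfrsf8 fell.

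The second comparison asked how the leukemias differ from each other, in the fit of 6 libraries. Of 34 family members tested 3 were called, where 3.09% of all genes were: Ltb and Tnfsf8 were higher in leukemia 92 (1.82% of all genes were), and Fas was lower (1.27% of all genes were). Tnfsf8, the ligand of Tnfrsf8, was at 14.0 and 10.3 CPM in leukemia 92 and 1.54 and 0.96 CPM in the libraries of leukemia 1, with pro-B cells between them at 2.55 and 2.73 CPM (log2 difference 3.28, SE 0.37, adjusted p = 0.031). Ltb was 3.52-fold higher in leukemia 92 (log2 difference 1.81, SE 0.16, adjusted p = 0.024), and Fas 3.58-fold lower (log2 difference -1.84, SE 0.28, adjusted p = 0.047, and 0.062 without a filter on low counts). Each of these calls was lost without either library of leukemia 92 or of pro-B cells. Tnfsf4, the ligand of Tnfrsf4, was at 22.8 and 6.02 CPM in the libraries of leukemia 1, 0.164 and 0.514 CPM in leukemia 92 and 0.333 and 0.234 CPM in pro-B cells. It was high in leukemia 1, where it rose against pro-B cells (log2 change 5.64, SE 0.97, adjusted p = 0.022), and its difference between the leukemias did not pass (log2 difference -5.41, SE 0.96, adjusted p = 0.060). Without leukemia 1 replicate 1 or replicate 2 the numbers of family members called were 26 and 22, where 50.5% and 52.5% of all genes were called. The SD of log2 differences between replicates over all genes was 1.33 in leukemia 1, against 0.4 in leukemia 92 and 0.35 in pro-B cells.

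For each leukemia against pro-B cells, leukemia 1 had 12 calls in the family, where 20.3% of all genes were called: 8 rises (9.55% of all genes) and 4 falls (10.7% of all genes). Leukemia 92 had 17, where 31.4% of all genes were called: 9 rises (14.7% of all genes) and 8 falls (16.7% of all genes). Both comparisons use the same 2 pro-B libraries. The numbers called without 1 library ranged from 0 to 29 for leukemia 1 and from 3 to 28 for leukemia 92, the highest without a library of leukemia 1. In the fits with 29 and 28 calls, 62.2% and 67.6% to 69.4% of all genes were called. The lowest for leukemia 1 was reached without pro-B replicate 1 or 2. Without either library of leukemia 92, only Lta, Tnf, Tnfrsf11a, Tnfrsf1b and Tnfsf10 kept their calls in leukemia 1. The 3 called in leukemia 92 without either of its own libraries were Lta, Tnf and Tnfrsf11a (3.79% and 4.01% of all genes were called). The calls of Fas, Tnfrsf21, Tnfrsf14, Tnfsf4 and Tnfrsf19 in leukemia 1, and those of Tnfrsf13b, Tnfrsf23, Tnfrsf9 and Tnfsf11 in leukemia 92, were not made when such a library was left out.

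**Figure D3:**
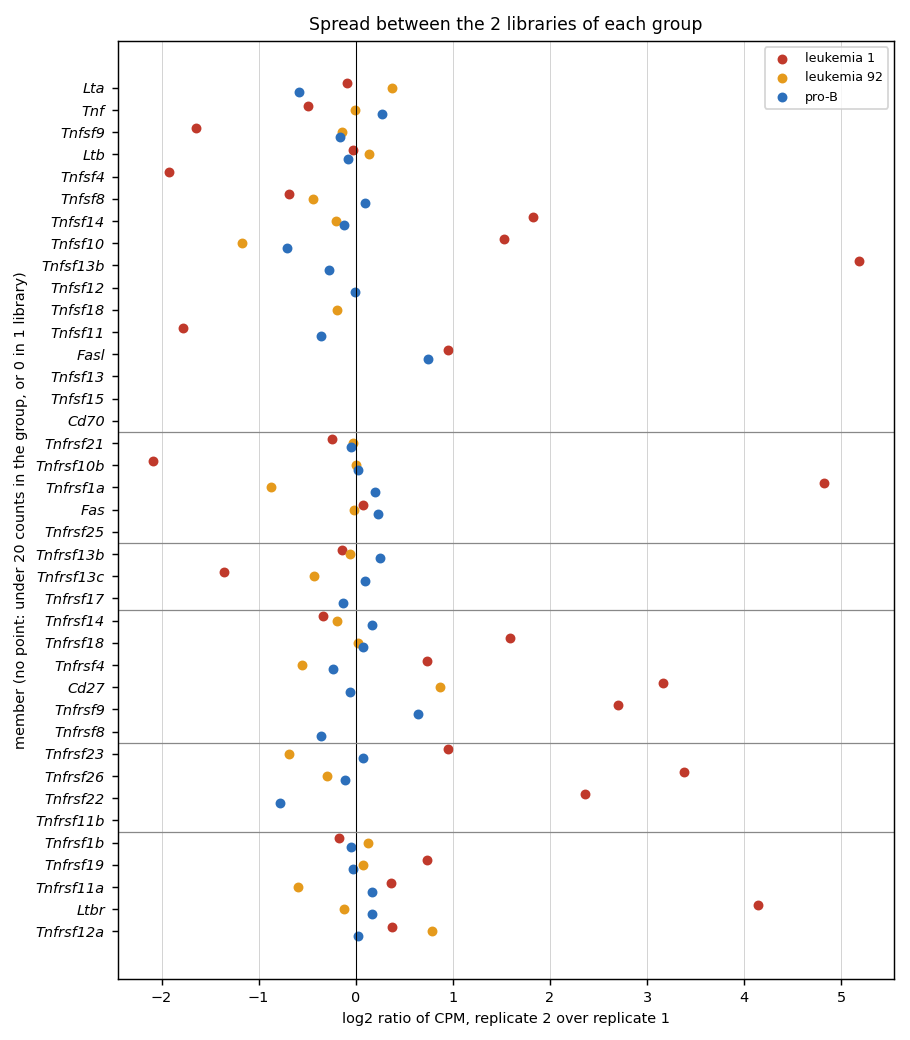
Log2 ratio of CPM in replicate 2 over replicate 1 for each gene in each of the 3 groups, for genes with at least 20 counts in the group and reads in both libraries. Points of leukemia 92 and pro-B cells lie near 0, and those of leukemia 1 spread in both directions, up to 36.4-fold for Tnfsf13b.

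The 2 libraries of leukemia 1 differed by more than 2-fold in 15 of 30 family members with at least 20 counts, 10 higher in replicate 2 and 5 higher in replicate 1, against 1 of 25 in leukemia 92 and 0 of 32 in pro-B cells. The median distance was 2.25-fold, against 1.14-fold and 1.12-fold. How many of all genes were more than 2-fold apart was not counted. Taken over all genes, leukemia 1 was also the group with the widest gap between its libraries (log2 SD 1.33). Leukemia 92 had 0.4 and pro-B cells 0.35. Such spread was thus not limited to the family. Tnfsf13b, Tnfrsf1a, Ltbr, Tnfrsf26, Cd27 and Tnfrsf9 were 6.52-fold to 36.4-fold higher in replicate 2, the library with the highest sum of granulocyte markers, and T cell markers were also higher there (62.2 against 16.5 CPM). Tnfrsf10b, Tnfsf4, Tnfsf11, Tnfsf9 and Tnfrsf13c were 2.55-fold to 4.26-fold higher in replicate 1. Lta, Ltb, Fas, Tnfrsf13b and Tnfrsf1b differed by at most 1.13-fold between these libraries. The part of other cell types in these differences was not tested.

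The remaining members were low. Of 13 that neither passed a test in the 4 comparisons nor reached a mean of 10 CPM in a group, 6 stayed under 1 CPM in every library: Cd70, Tnfrsf11b, Tnfrsf25, Tnfsf13, Tnfsf15 and Tnfsf18. Tnfrsf12a, the receptor of the cytokine TWEAK, lay at 2.30 to 6.24 CPM in leukemia and 2.15 and 2.18 CPM in pro-B cells (adjusted p = 0.16). Its ligand Tnfsf12 was at 0 and 1.48 CPM in the libraries of leukemia 1, 0.0822 and 0.28 CPM in leukemia 92 and 1.37 and 1.36 CPM in pro-B cells (adjusted p = 0.23). Tnfsf12 and Tnfsf13 share exons with a read-through gene in GENCODE M21, so reads of the pair are uncertain.

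Downstream of the receptors lie adaptors, NF-kB and caspases. Of 30 adaptors, kinases and ubiquitin enzymes, 3 rose (9.54% of all genes did), 1 fell (10.7% of all genes did) and 26 were not called. Their median on the log2 scale was 0.27, against 0.02 over all genes tested. Mlkl, the effector of necroptosis, rose from 4.69 ± 0.0168 CPM (SD, n = 2) to 21.2 ± 5.75 CPM (SD, n = 4; log2 change 2.20, SE 0.33, adjusted p = 0.026). Traf3, a restraint on the alternative NF-kB pathway, rose by 1.28 (adjusted p = 0.016) and Birc3, an E3 ligase induced by NF-kB, by 0.76 (adjusted p = 0.039), and its relative Birc2 fell by 0.81 (SE 0.11, adjusted p = 0.023). In the fit of 6 libraries Traf3 and Birc3 were not called (adjusted p = 0.089 and 0.22). Without replicate 1 of leukemia 1 the adjusted p of Traf3 was 0.10 and that of Birc3 was 0.32, and without replicate 2 that of Birc3 was 0.10.

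Of 13 NF-kB subunits, inhibitors and kinase subunits, 5 rose (9.54% of all genes did), 0 fell (10.7% of all genes did) and 8 did not pass. Their median log2 change was 0.49, against 0.02 over all genes tested. Of these 5 only Bcl3 was called when replicate 1 of leukemia 1 was left out, and Nfkb2, Rel, Rela and Relb were not called in the fit of 6 libraries (adjusted p = 0.12, 0.12, 0.061 and 0.083). Bcl3, a nuclear cofactor of NF-kB, rose from 3.10 ± 0.409 CPM (SD, n = 2) to 20.5 ± 9.02 CPM (SD, n = 4; log2 change 2.71, SE 0.25, adjusted p = 0.014). Nfkb2 and Relb, subunits of the alternative pathway, rose by 1.19 and 1.65 on the log2 scale (adjusted p = 0.016 and 0.021). Relb was at 70.4 and 19.6 CPM in the libraries of leukemia 1, 32.1 and 30.4 CPM in leukemia 92 and 11 and 13.0 CPM in pro-B cells. Nfkbia, the inhibitor that NF-kB itself induces, was lower in leukemia 92 than in leukemia 1 (log2 difference -1.21, SE 0.17, adjusted p = 0.043).

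**Figure D4:**
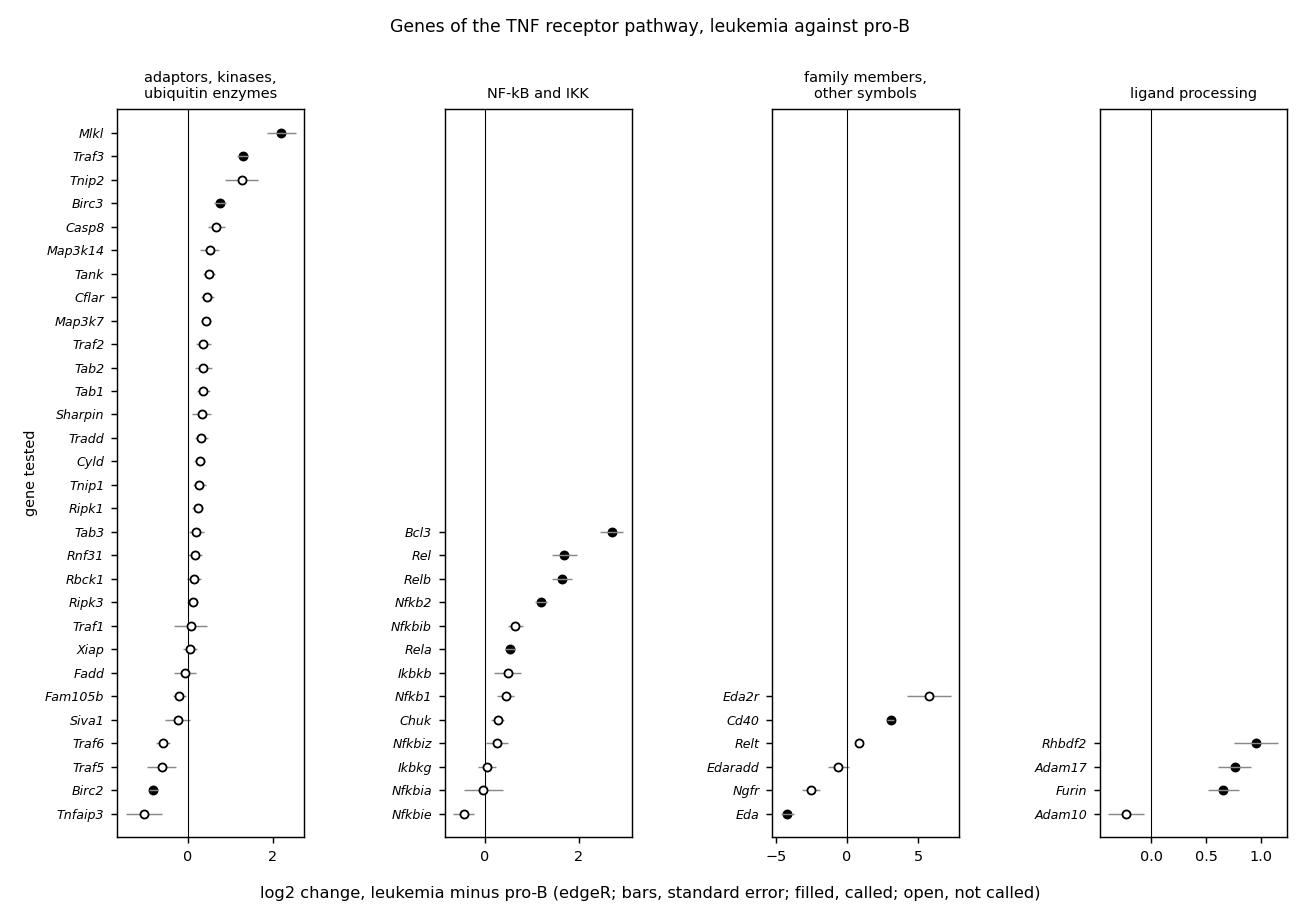
Log2 change between leukemia and pro-B cells for the genes tested in 4 lists of the TNF receptor pathway, 1 panel per list with its own horizontal scale. Points are log2 changes, bars standard errors, and filled points passed an adjusted p of 0.05. In the first panel 26 of 30 points are open, and the filled points of the NF-kB panel all lie right of 0.

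Among 7 genes of the caspase and mitochondrial step 1 rose (9.54% of all genes did), 0 fell (10.7% of all genes did) and 6 did not pass. Their median log2 change was -0.10, against 0.02 over all genes tested. Bid, which links Casp8 to mitochondria, rose from 52.8 ± 2.04 to 117 ± 9.72 CPM (SD, n = 2 and 4; log2 change 1.16, SE 0.15, adjusted p = 0.019). Of 6 family members tested that carry other symbols 1 rose (9.54% of all genes did) and 1 fell (10.7% of all genes did). Their median log2 change was 0.13, against 0.02 over all genes tested. Cd40, the receptor through which T cells help B cells, was at 60.9 and 7.24 CPM in the libraries of leukemia 1, 29.1 and 22.8 CPM in leukemia 92 and 3.92 and 3.0 CPM in pro-B cells (log2 change 3.09, SE 0.25, adjusted p = 0.012, and 0.12 without replicate 1 of leukemia 1). Cd40 was not called in the fit of 6 libraries (adjusted p = 0.067). Eda, ectodysplasin, fell by 4.20 (SE 0.47, adjusted p = 0.017), from 2.44 and 2.14 CPM in pro-B cells to 0.0411 to 0.185 CPM. Of 4 genes of ligand processing 3 rose (9.54% of all genes did), 0 fell (10.7% of all genes did) and 1 did not pass. Their median log2 change was 0.71, against 0.02 over all genes tested. Adam17, the protease that releases Tnf from the membrane, rose by 0.76 (adjusted p = 0.040), its cofactor Rhbdf2 by 0.95 (adjusted p = 0.048) and Furin, a proprotein convertase, by 0.65 (adjusted p = 0.047). Adam17 was at 319 CPM in replicate 1 of leukemia 1 and at 131 to 174 CPM in the other leukemia libraries, against 112 and 120 CPM in pro-B cells. These 3 calls were lost without either library of leukemia 1, and those of Rhbdf2 and Furin with other size factors. Adam17 was not called in the fit of 6 libraries (adjusted p = 0.19).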

How the data were processed

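The authors deposited raw counts, which in the values are whole reads per gene symbol and library. In the submitters' processing notes STAR 2.4, HTSeq 0.6.1, DESeq2 and the mm9 build are listed without saying what each did. Neither the annotation nor the strandedness of counting is known from these sources. The 5 entries that name no gene (34.0% to 39.6% of a library's total) were left out. Tests ran in edgeR 4.0.16 under R 4.3.3, keeping genes by filterByExpr at 10 counts, with TMM scaling, the robust quasi-likelihood test and Benjamini-Hochberg adjustment over all genes tested, with standard errors taken from the F statistic. Leukemia against pro-B used counts summed per leukemia. The other 3 comparisons used 6 libraries and 3 group coefficients. The pipeline was run on simulated data in which libraries were drawn independently, with no added spread between leukemias. The outcome is not given here and is no check of these calls. Alternatives were RLE size factors, DESeq2 1.42.0, no filter, a minimum count of 30, each library left out, a replicate block and a 3-group fit.

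A gene got its value in every library if it was called in any comparison or had a mean of at least 10 CPM in a group, which gave 26 of 39. Ltbr, Tnfrsf12a, Tnfsf12, Tnfsf13b, Tnfsf14 and Tnfsf18 are given with values beyond this rule, chosen after these were seen. Pathway genes were named as up to 3 called per list and direction with the smallest p, and 1 for leukemia 92 against leukemia 1. The genes, lists and rules were chosen with earlier results of these data known. Of the pathway lists, 1 of 5 entries for ligand processing had no matching symbol. The reference is GRCm38 and not the mm9 of the files, so it served for RefSeq promoter sequences, neighbours and exon lengths only. Exact intervals and floors cover counting error alone. Some genes of the lists are not reported here by name.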

Additional observations from a re-analysis of the deposited data

Results flagged for a closer look

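The change against the shared pro-B libraries differed between the leukemias, by the direct test of leukemia 92 against leukemia 1 (edgeR), for 3 family members. Fas was lower in leukemia 92, with a log2 difference of -1.84 (adjusted p = 0.047, and up to 0.45 with 1 library left out). Ltb was higher there, with a log2 difference of 1.81 (adjusted p = 0.024, and up to 0.34). Tnfsf8 was higher there as well, with a log2 difference of 3.28 (adjusted p = 0.031, and up to 0.38). In each case the values of both libraries of leukemia 92 lay outside those of both libraries of leukemia 1. The 3 genes were picked by a test on these same libraries, so this is no separate support. The share of all genes with such a separation was not counted.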

How the results depend on the processing

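Replicates share only a number in the labels (correlation of replicate differences between groups -0.10 to 0.08), and the replicate block gave 11, 0, 8 and 12 family members called for leukemia against pro-B, leukemia 92 against leukemia 1, leukemia 1 against pro-B and leukemia 92 against pro-B, against 13, 3, 12 and 17 without it; 22.5%, 0%, 9.61% and 20.9% of all genes were called with it. In leukemia 92 against leukemia 1 the adjusted p under the block was 0.10 for Ltb, 0.10 for Tnfsf8 and 0.14 for Fas. For that comparison DESeq2 without the block called 12 in place of 3 (18.7% of all genes). With 1 library left out the numbers ranged from 0 to 14, 0 to 26, 0 to 29 and 3 to 28. A lone library is then assumed to vary like the other groups. No called member changed sign under any alternative run. In leukemia 92 against leukemia 1, 12 members that were not called changed sign with 1 library left out, among them Ltbr, Tnfrsf18, Tnfrsf4, Tnfsf12, Tnfsf13b and Tnfsf14; for the other 6, without replicate 1 and without replicate 2 of leukemia 1, Cd27 stood at -1.49 and 1.65, Tnfrsf10b at 1.60 and -0.49, Tnfrsf17 at -1.95 and 3.25, Tnfrsf1a at -2.24 and 2.57, Tnfrsf22 at -0.58 and 1.73, and Tnfrsf26 at -1.81 and 1.55 on the log2 scale. The share of all genes that changed sign was not counted, and the cause was not tested. DESeq2 called 18 in leukemia 1 against pro-B in place of 12 (30.4% of all genes). A fit of 6 libraries called 14 over both leukemias (31.5% of all genes), losing Tnfrsf10b and Tnfrsf17 and gaining Ltb, Tnfrsf19 and Tnfsf11. Depth limits statements on Cd70, Tnfrsf11b, Tnfrsf25, Tnfsf13, Tnfsf15 and Tnfsf18, which had at most 13 counts in a library. It also limits those on Tnfrsf17, which had at most 15.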

Other observations

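Some genes of the pathway lists did not pass over both leukemias but passed when a single leukemia was compared with pro-B cells. They are named here after their values were seen, and these calls were not repeated with libraries left out. Eda2r, a death-inducing receptor of ectodysplasin, was at 11.7 and 4.88 CPM in the libraries of leukemia 1, 0.452 and 1.07 CPM in leukemia 92 and 0.074 and 0.078 CPM in pro-B cells. It rose in leukemia 1 (log2 change 6.67, SE 0.83, adjusted p = 0.011) and in leukemia 92 (log2 change 3.24, SE 0.80, adjusted p = 0.037). Both pro-B values lay under the floor of 3 counts, which was at 0.111 and 0.117 CPM in these libraries. The size of both changes is therefore uncertain. In leukemia 92 the initiator caspases Casp8 (log2 change 0.81, adjusted p = 0.011) and Casp9 (log2 change 0.82, adjusted p = 0.018) rose. Tnfaip3, the deubiquitinase A20 that restrains NF-kB, fell in leukemia 92 (log2 change -1.74, SE 0.26, adjusted p = 0.011) and was at 319 and 222 CPM in the libraries of leukemia 1, 101 and 134 CPM in leukemia 92 and 351 and 435 CPM in pro-B cells.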
